A study of Mus musculus with 16 samples.

Results

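Interferon-responding Th2 cells of the mesenteric lymph nodes (MLN) are described here as the sorted CD4+IL-4eGFP+ T cells in which Ifit1, Ifit3, Isg15, Rsad2 and Usp18 together gave at least 3 unique molecular identifiers (UMIs, each a count of 1 captured transcript). Cells had more than 500 UMIs, more than 500 genes, under 7% mitochondrial UMIs and a productive T-cell receptor (TCR) α and β chain. By this rule 724 of 3216 MLN cells were responding, among 4714 lung and MLN cells that passed the same filters. The cells were compared with the 1649 MLN cells that had no UMI of the 5 genes, called non-responding here, while the 843 MLN cells with a sum of 1 or 2 were set aside. The 5 genes, called rule genes, chose the cells, so their own levels are given as a description and without a test.

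The MLN and perfused lung of 2 IL-4eGFP reporter (4get) mice, 13 weeks old, were taken 10 days after subcutaneous infection with larvae of the helminth Nippostrongylus brasiliensis. The CD4+IL-4eGFP+ cells of each organ gave a single-cell 5′ RNA library and a TCR library, named MLN 1, MLN 2, lung 1 and lung 2 by organ and mouse. In a second experiment with 2 other 4get mice, 10 weeks old and infected for 10 days as well, IL-4eGFP+ and IL-4eGFP- CD4+ cells of the lung-draining mediastinal lymph node (medLN) and the MLN were sorted and labelled with hashtag antibodies, and the TCR was not used. All mice received antibiotics in the drinking water during the first days of infection, and no uninfected mice were analysed here. In 4get mice a green fluorescent protein follows the Il4 gene, so the sort also takes cells that are only licensed for IL-4 and natural killer T cells. The filtered cells of MLN 1 held 14512767 UMIs with a median of 4980 per cell, and those of MLN 2 held 4477888 with a median of 4971. MLN 1 and MLN 2 shared 1 cell barcode, MLN 1 and lung 1 shared 8 and MLN 2 and lung 1 shared 4, and no such pair had the same TCR.

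Interferons are secreted proteins that act through receptors on their target cells. Type I and type III interferons signal through JAK1 and TYK2 to a complex that contains STAT2 and IRF9 and binds a DNA sequence called the interferon-stimulated response element (ISRE), whereas interferon-γ signals through JAK1 and JAK2 to a factor that binds the interferon-γ-activated site (GAS). The induced genes overlap and include antiviral effectors, nucleic acid sensors, large GTPases, parts of MHC class I antigen presentation and regulators of the pathway itself.

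The rule genes are classical targets of the first of these routes. Isg15 (chr4:156199424-156200818, minus strand) encodes a ubiquitin-like protein, and Usp18 (chr6:121245906-121270917, plus strand) encodes the protease that removes it and also restrains the type I receptor. Ifit1 (chr19:34640871-34650009, plus strand) and Ifit3 (chr19:34583531-34588731, plus strand) encode RNA-binding antiviral proteins, and Rsad2 (chr12:26442746-26456452, minus strand) encodes viperin. Positions are those of GENCODE vM21 on GRCm38. RefSeq promoter windows of GRCm38.p6, from 250 bases before to 50 bases after a gene's start, were found for 4 of the 5, and each of the 4 held the letters of the ISRE, GAAANNGAAA or TTTCNNTTTC. The stretches around these matches are shown because they carry the motif through which the rule genes are known to be induced. Each is read 5′ to 3′ along the strand of its gene, with the motif in capitals.
Ifit1: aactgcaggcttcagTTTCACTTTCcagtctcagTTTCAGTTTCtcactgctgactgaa
Ifit3: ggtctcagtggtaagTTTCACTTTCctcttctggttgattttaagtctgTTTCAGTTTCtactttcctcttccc
Isg15: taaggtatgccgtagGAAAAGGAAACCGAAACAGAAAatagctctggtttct
Rsad2: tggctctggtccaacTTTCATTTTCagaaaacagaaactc
These stretches lie at chr19:34640770-34640828, chr19:34583358-34583431, chr4:156200860-156200911 and chr12:26456548-26456587. The Isg15 stretch holds 3 matches that overlap, within a run that begins 78 bases before the start of the gene. Ifit1 and Ifit3 hold 2 matches each, and Rsad2 holds 1.

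Isg15 made up most of the selecting signal. It was found in 98.6% of the responding cells of MLN 1 (647 of 656, exact Clopper-Pearson 95% interval 97.4 to 99.4%) and in 98.5% of those of MLN 2 (67 of 68, 92.1 to 100.0%). It gave 66.9% and 61.2% of the summed UMIs of the rule genes in MLN 1 and MLN 2. Ifit1 was found in 61.0% and 64.7% of responding cells, Usp18 in 33.5% and 29.4%, Rsad2 in 29.7% and 20.6%, and Ifit3 in 21.3% and 17.6%, in the same order of mice. The levels, in CPM (the UMIs of a gene summed over all responding cells of a library and scaled to a common total), were 1173 and 928 CPM for Isg15 and 318 and 320 CPM for Ifit1, so that the order of the 5 genes began alike in both mice. Isg15 was the only rule gene detected in 27.4% and 27.9% of responding cells, and all 5 genes were detected together in 51 cells (7.77%) of MLN 1 and 6 cells (8.82%) of MLN 2. The sum had a median of 7 UMIs in MLN 1 and 5 in MLN 2 and reached 114 and 124. At least 1 UMI of Isg15 was found in 50.4% of all MLN 1 cells and 29.3% of all MLN 2 cells, responding cells included. Responding cells made up 26.6% and 9.02% of these cells, so Isg15 was also found outside the class. No cell type that lacks these genes was sorted, so a background from free RNA could not be measured. All intervals cover counting error only.

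The share of responding cells differed widely between the mice. In MLN 1, 656 of 2462 cells were responding (26.6%, 95% interval 24.9 to 28.4%), whereas in MLN 2 it was 68 of 754 (9.02%, 7.07 to 11.3%). Lung cells of the same mice gave 54 of 1082 cells (4.99%, 3.77 to 6.46%) in lung 1 and 29 of 416 (6.97%, 4.72 to 9.86%) in lung 2. Both MLN shares were above both lung shares, with a difference of means of 11.9 percentage points (17.8 ± 12.5 against 5.98 ± 1.40, SD, n = 2 each), which gave p = 0.3333 in an exact two-sided permutation test, the smallest value that 2 samples against 2 allow. This test, like that of medLN against MLN below, treated the samples as independent although both organs came from the same mice. The medians of UMIs per cell differed between the organs, with 6910 in lung 1 and 5765.5 in lung 2. With every cell thinned to 2000 UMIs, which kept 2411, 743, 1068 and 408 cells of MLN 1, MLN 2, lung 1 and lung 2, the shares were 13.8%, 3.36%, 1.03% and 1.96%, and both MLN libraries stayed above both lung libraries. A threshold of 3 UMIs thus picks fewer cells at lower depth, and the shares below are comparable only at like depth.

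**Figure D1:**
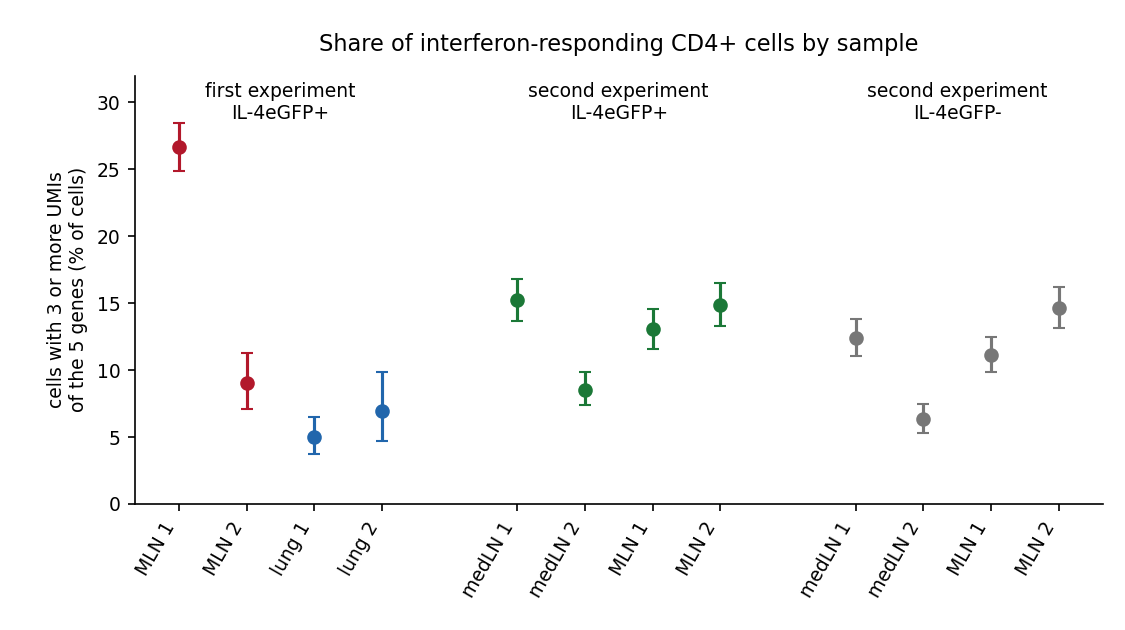
Share of CD4+ cells with 3 or more summed UMIs of the 5 rule genes (percent of cells, vertical axis) in each sample, with points for the share and bars for the exact 95% interval of counting error. MLN 1 of the first experiment is highest at 26.6%, MLN 2 is at 9.02%, and the 2 lung samples are at 4.99% and 6.97%, while the 8 samples of the second experiment lie between 6.33% and 15.2%.

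Responding cells were somewhat deeper than non-responding cells and expressed T cell lineage genes. Their median depth was 5469 against 4632 UMIs in MLN 1 and 5145 against 4842 in MLN 2 for responding against non-responding cells, and their median mitochondrial share was 3.01% against 3.44% and 2.95% against 3.33%. Cd3e, a subunit of the TCR complex, was found in 99.5% and 100.0% of responding cells, and Cd4 in 77.9% and 76.5%. Il4 was found in 73.0% of responding against 68.1% of non-responding cells of MLN 1, and in 60.3% against 65.1% in MLN 2. Gata3, which encodes the transcription factor that directs Th2 differentiation, was found in 51.8% against 49.7% and in 57.4% against 56.2%. Of cells that carried the invariant TCRα of natural killer T cells there were 10 among 656 responding and 24 among 1133 non-responding cells of MLN 1, and 1 of 68 and 11 of 516 in MLN 2. TCR chains beyond those a single T cell carries (over 1 TCRβ or over 2 TCRα), which may mark 2 cells in a droplet, were found in 9.76% of responding against 5.38% of non-responding cells of MLN 1 and in 4.41% against 7.75% in MLN 2. Their part in the results was tested by leaving these cells out, which gave 270 changed genes in the comparison below in place of 234.

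Interferon-induced genes that were not used for the choice were also higher at higher sums. A list of 50 interferon-induced antiviral genes without the rule genes, 49 of them in the count tables, reached 6394 CPM in MLN 1 cells with a sum of 0, 7628 CPM at a sum of 1 and 9146 CPM at 2, below the threshold. Just inside it, 122 MLN 1 cells with a sum of 3 were at 9493 CPM, followed by 10757 CPM at 4 to 5, 14193 CPM at 6 to 11 and 19428 CPM in the 209 cells with 12 or more. In MLN 2 the same list was at 5355 CPM at a sum of 0, 6623 CPM in 39 cells with a sum of 2, 7810 CPM in 16 cells with a sum of 3, 12735 CPM in 17 cells with 6 to 11 and 12535 CPM in 14 cells with 12 or more, so that it did not climb over the top classes. Cells just inside and just outside the threshold were thus close in MLN 1 and less so in MLN 2, where few cells stood behind the values, and the class is a range of a score cut at a threshold. Irf7, a transcription factor that is itself induced by interferon, went from 56.4 to 134 CPM between sums of 0 and 2 and to 559 CPM at 12 or more in MLN 1. In MLN 2 it stood at 44.1 CPM at a sum of 0, 101 CPM at 2 and 345 CPM at 3, and at 303, 431 and 369 CPM at 4 to 5, 6 to 11 and 12 or more, with a step at the threshold and no order above it. The GBP and IRG list, large GTPases and other genes known from the response to interferon-γ, stood at 473, 636, 651 and 2223 CPM in MLN 1 at sums of 0, 2, 3 and 12 or more, and at 492, 671, 808 and 1948 CPM in MLN 2. Il4 followed no such order, with 375 CPM at a sum of 0, 613 CPM at 4 to 5 and 331 CPM at 12 or more in MLN 1.

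**Figure D2:**
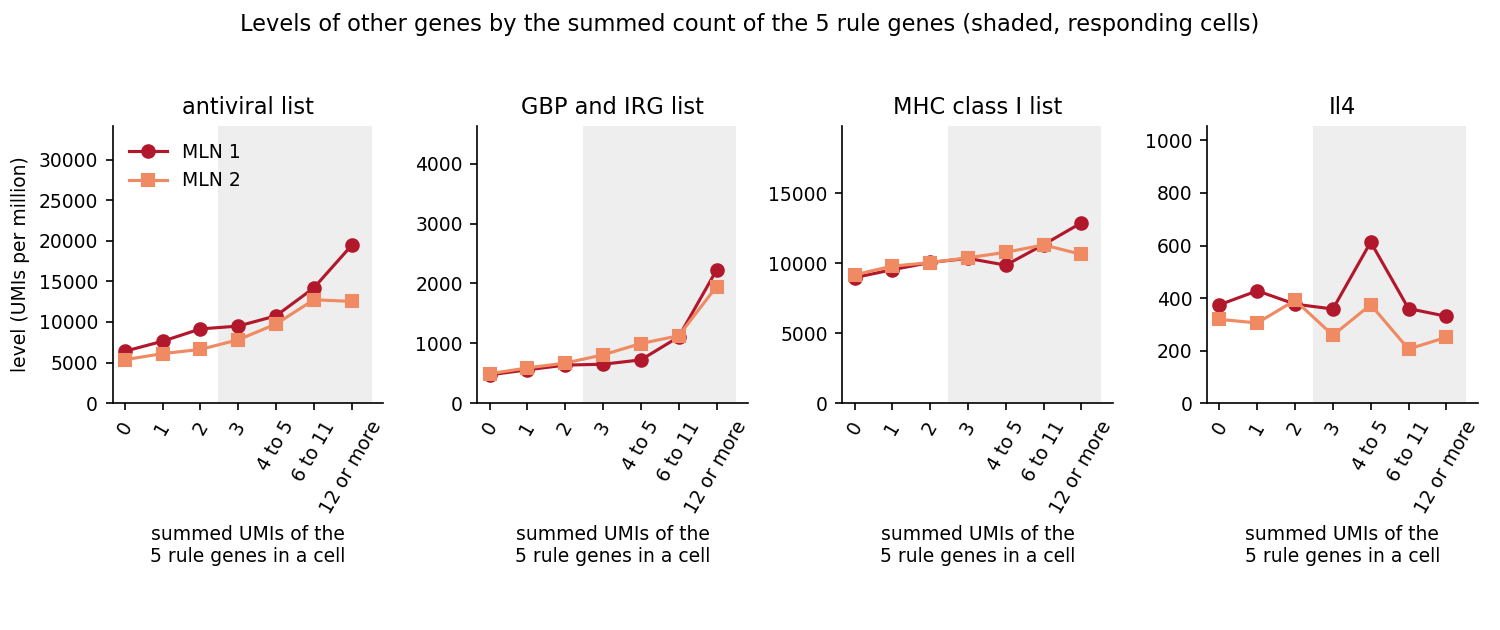
Level in CPM (vertical axes, from 0) of 3 gene lists and of Il4 in MLN cells grouped by their summed UMIs of the 5 rule genes (horizontal axes), with 1 line for each mouse and the responding classes shaded. The antiviral list climbs from 6394 to 19428 CPM in MLN 1 and from 5355 to 12735 CPM at 6 to 11 in MLN 2, where it ends at 12535 CPM, while Il4 shows no order.

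At equal depth the antiviral genes were spread over many members in each responding cell. After thinning to 2000 UMIs, responding cells held UMIs of a median of 11 antiviral list genes (quartiles 7 and 15) in MLN 1 and 9 (7 and 13) in MLN 2, whereas non-responding cells held 5 (4 and 7) and 5 (3 and 6). The most such genes in 1 responding cell were 29 in MLN 1 and 26 in MLN 2. Cells with a sum of 1 or 2 had medians of 6 and 5. The quartiles of responding and non-responding cells met at 7 in MLN 1 and did not overlap in MLN 2.

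For a test across genes, UMIs were summed over the responding and over the non-responding cells of each mouse and compared with edgeR's quasi-likelihood test with the mouse as a block and Benjamini-Hochberg adjustment. The rule genes and 268 TCR genes stayed out of this test. Of 9764 genes tested, 205 (2.1%) were higher and 29 (0.297%) were lower in responding cells at an adjusted p below 0.05, and 761 had an unadjusted p below 0.05. Among the 205 higher genes, 87 belonged to the fixed interferon lists, 7 to other lists and 111 to none. The median log2 fold change of all tested genes was -0.01. The sums hold cells of different depth, and a higher sum cannot tell more cells with a transcript from more transcripts per cell. The count of calls depended on the block and the tool, with 128 called genes (125 higher, 3 lower) when the mouse was not a block and 87 (all higher) with DESeq2.

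Antiviral effectors formed the largest block of higher genes. Of 47 tested members of the antiviral list, 45 rose, 0 fell and 2 (Nt5c3 and Pnpt1) did not pass, with a median log2 fold change of 1.85 against -0.01 over all genes. The 45 include genes at 1.63 CPM or less in non-responding cells, such as Ifit3b, Oas2, Oasl1, Oasl2 and Ifi44. These could be tested only through the responding cells and could hardly fall. Their part in this count, and in the repeats below, is a description. Bst2 (chr8:71534255-71537456), which encodes tetherin, a membrane protein that holds back budding viruses, was at 409 CPM in responding and 70.0 CPM in non-responding cells of MLN 1, and at 294 and 42.8 CPM in MLN 2. Both responding sums were far above both non-responding sums, a 6.30-fold difference (log2 2.66 ± 0.096, SE, n = 2 mice, adjusted p = 8.46e-33), and Bst2 was detected in 74.1% against 26.1% of cells in MLN 1 and in 73.5% against 21.5% in MLN 2. Rtp4 (chr16:23520291-23614222), a chaperone-like gene that is strongly interferon-induced, stood at 271 and 230 CPM in responding and at 22.7 and 7.13 CPM in non-responding cells of MLN 1 and MLN 2 (log2 3.93 ± 0.14, adjusted p = 1.51e-32). Cmpk2, a neighbour of Rsad2 that encodes a nucleotide kinase, had 54.2 and 65.8 against 3.59 and 3.06 CPM (log2 4.10 ± 0.25, adjusted p = 1.95e-21). Mx1, a gene of the dynamin-like GTPase family, had 54.9 and 46.1 against 3.26 and 3.06 CPM (log2 4.06 ± 0.26). For all 4 genes the responding sum of each mouse exceeded the non-responding sums of both mice. As these genes were named for their large changes in both mice, this is a description.

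The largest fold change of the named genes was that of Ifit3b (chr19:34607970-34613401), with 57.2 and 48.3 CPM in responding and 0.489 and 0.34 CPM in non-responding cells, the latter resting on 3 UMIs and 1 UMI. Ifit3b is a near copy of the rule gene Ifit3, so reads of the 2 genes may be shared, which was not tested. Its fold change is therefore a description only, like the levels of the rule genes. The same 74 letters with both ISRE matches stand before Ifit3 and Ifit3b.
Ifit3b: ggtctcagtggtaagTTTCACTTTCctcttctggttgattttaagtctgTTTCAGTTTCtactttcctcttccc
This stretch lies at chr19:34607754-34607827. The oligoadenylate synthetases, which make the messenger that activates RNase L, were higher as well, with 62.3 and 50.5 against 8.81 and 9.51 CPM for Oas1a and 76.0 and 52.7 against 12.2 and 6.79 CPM for Oas3. Oas1a has close paralogs, among which reads may be divided. Xaf1, an interferon-induced partner of cell death inhibitors, reached 162 and 167 against 27.4 and 25.1 CPM, and Slfn5, a member of the schlafen family, 156 and 81.2 against 23 and 24.8 CPM. Phf11c, from a cluster of similar genes on chromosome 14, reached 82.9 and 76.8 against 11.1 and 10.5 CPM. The log2 fold changes of these 5 genes lay between 2.52 and 2.93.

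Abundant antiviral genes changed less in fold and more in transcripts. Ifi27l2a, the most abundant member of the list in responding cells, stood at 5112 and 3274 CPM against 1985 and 1540 CPM (2.43-fold, adjusted p = 1.93e-35). Ly6a, which encodes the surface protein Sca-1, had 935 against 337 CPM in MLN 1 and 511 against 223 CPM in MLN 2 (log2 1.42 ± 0.070). Ly6e, the most abundant member in non-responding cells, had 2709 and 2335 against 2289 and 1987 CPM (log2 0.28 ± 0.039, adjusted p = 1.11e-07). Its groups did not overlap, although the difference was small, and it did not pass without the block.

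**Figure D3:**
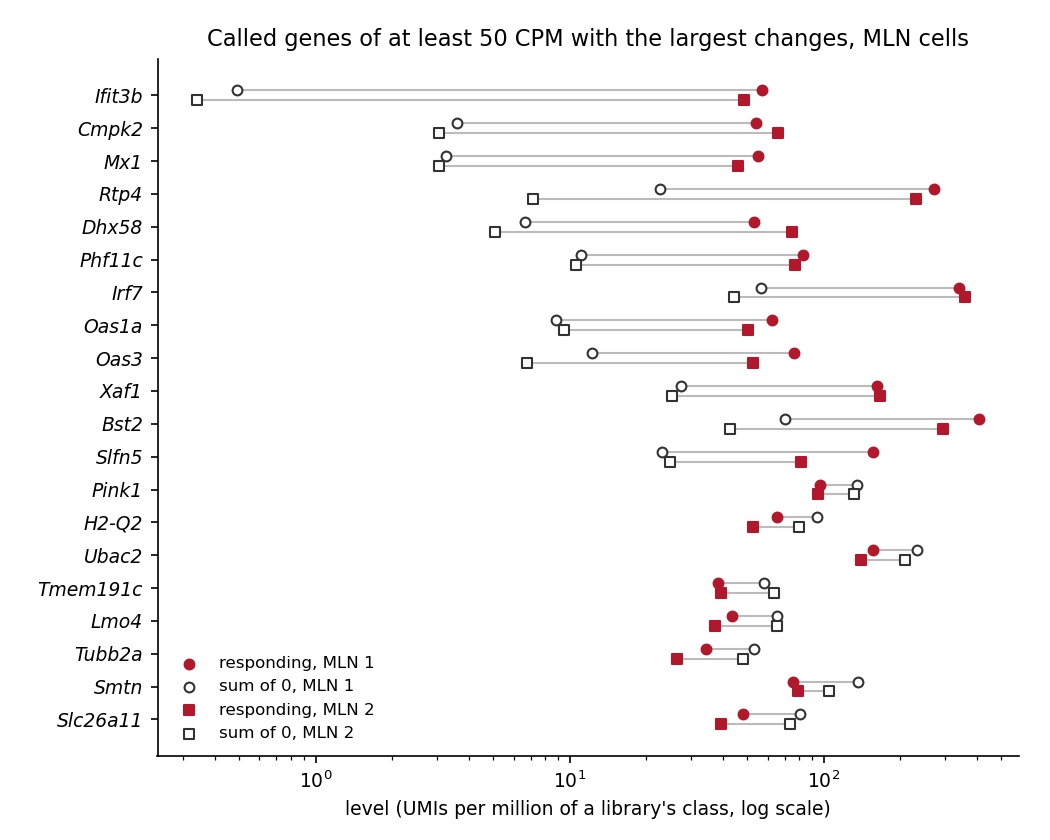
Level in CPM (horizontal axis, log scale) of the 12 genes with the largest and the 8 with the smallest fold change among called genes of at least 50 CPM in the higher class and with the same direction in both mice, with filled symbols for responding and open symbols for non-responding cells, circles for MLN 1 and squares for MLN 2. All 12 upper genes are higher and all 8 lower-expressed genes are lower in the responding cells of both mice, from Ifit3b (57.2 and 48.3 against 0.489 and 0.34 CPM) to Slc26a11 (48.0 and 39.5 against 80.6 and 73.7 CPM).

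Promoter letters of some of these genes are given because they share the motif of the rule genes.
Oas1a: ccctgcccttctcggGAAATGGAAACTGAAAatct
Oas3: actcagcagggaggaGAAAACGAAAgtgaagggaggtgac
Bst2: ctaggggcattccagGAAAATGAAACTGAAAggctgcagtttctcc
Slfn5: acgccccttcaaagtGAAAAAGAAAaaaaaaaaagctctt
Igtp: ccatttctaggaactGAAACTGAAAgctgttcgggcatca
Irgm1: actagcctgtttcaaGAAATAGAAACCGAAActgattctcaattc
B2m: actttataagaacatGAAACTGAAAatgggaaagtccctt
In Oas1a, Bst2 and Irgm1 a pair of matches overlaps by sharing 1 GAAA. The stretches lie at chr5:120907526-120907560, chr5:120777710-120777749, chr8:71537572-71537617, chr11:82951932-82951971, chr11:58199507-58199546, chr11:48871421-48871465 and chr2:122147533-122147572. The windows of Cmpk2, Phf11c, Irf7, Xaf1, Ifi47, H2-K1 and H2-D1 did not contain these letters.

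Over all genes with a RefSeq promoter window, ISRE letters were more frequent in front of higher genes. They were present for 53 of the 160 matched higher genes (33.1%), for 1 of 22 matched lower genes (4.55%), for 303 of 7688 matched genes tested (3.94%) and for 1079 of all 27025 genes with a window (3.99%). The GAS letters, TTCNNNGAA, which read alike on both strands, were present for 24 of the 160 higher genes (15%) and 9.55% of all genes. Among higher members of the GBP and IRG list 9 of 10 matched genes held the ISRE and 6 of 10 the GAS, with 6 holding both. Higher members of the antiviral list held the ISRE in 13 of 35 and those of the MHC class I list in 4 of 14. Counting only the 250 bases before the start, 26.3% of the higher genes and 3.46% of all genes held the ISRE. A match describes the letters of these windows and does not show that a factor was bound.

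**Figure D4:**
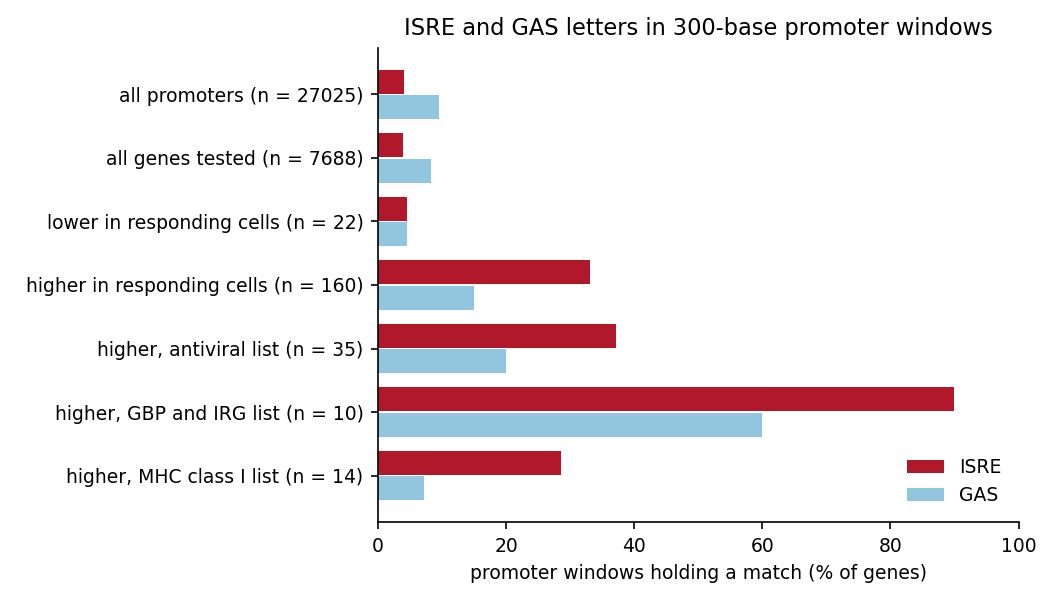
Percent of genes (horizontal axis) whose 300-base RefSeq promoter window holds the ISRE (dark bars) or the GAS (light bars) letters, for gene sets with the number of matched genes in brackets. The ISRE bar stands at 3.99% for all promoters, 33.1% for higher genes and 90% for higher GBP and IRG genes.

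Some signalling genes of the pathway were higher, and others did not pass. Of 7 tested JAK-STAT genes 3 rose, among them Stat2 and Irf9 of the ISRE-binding complex. Stat2 had 52.4 and 52.7 CPM in responding against 23.3 and 21.4 CPM in non-responding cells of MLN 1 and MLN 2 (log2 1.24 ± 0.17, adjusted p = 5.08e-08), and Irf9 had 114 and 116 against 58.5 and 50.9 CPM (log2 1.06 ± 0.13). Stat2 did not pass with DESeq2, and neither gene passed when cells with UMIs of proliferation genes were left out. Values of the kinases and of Stat3 did not pass, with log2 fold changes of -0.11 ± 0.078 for Jak1 and 0.12 ± 0.10 for Stat3. Of 7 interferon regulatory factors Irf7 alone rose, from 56.4 to 339 CPM in MLN 1 and from 44.1 to 360 CPM in MLN 2 (log2 2.77 ± 0.10, adjusted p = 8.46e-33), whereas Irf1, a target of interferon-γ signalling, had 106 against 81.7 CPM in MLN 1 and 90.0 against 102 CPM in MLN 2 (adjusted p = 0.486). Of 5 tested receptor chains 0 passed, with a median log2 fold change of -0.00. Ifnar1 stood at 51.7 and 54.9 against 51.2 and 57.0 CPM, Ifnar2 at 88.3 and 87.8 against 103 and 89.6 CPM, and Ifngr1 at 38.7 and 37.3 against 39.3 and 40.7 CPM. Interferon transcripts were nearly absent from the sorted MLN cells. Of 10 interferon genes only Ifng had any UMI, in 2 of 656 and 0 of 68 responding cells (3 counts over 68 cells allow a share of cells with a UMI of up to 4.41%) and in 1 of 1133 and 2 of 516 non-responding cells. In the lung Ifng stood at 2.06 and 0 CPM in responding and at 13.2 and 20.3 CPM in non-responding cells of lung 1 and lung 2, where it came from 22 of 881 and 10 of 334 cells.

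Nucleic acid sensors and a few inhibitors were higher too. Of 12 tested sensors 7 rose, among them the RIG-I family in full, with log2 fold changes of 1.52 for Ddx58 (RIG-I), 2.40 for Ifih1 (MDA5) and 3.28 for Dhx58 (LGP2), and 4 genes of the Ifi200 family of DNA-binding proteins. Ifi203, the most abundant of them, stood at 254 and 272 against 81.2 and 82.5 CPM (log2 1.71 ± 0.095). Of 7 tested feedback inhibitors Samhd1, an enzyme that limits nucleotides, and Socs1, which blocks JAK kinases, passed. Samhd1 had 434 and 395 against 279 and 246 CPM. Socs1 had 138 against 94.6 CPM in MLN 1 but 98.7 against 97.8 CPM in MLN 2, so its call (adjusted p = 0.0085) rested on MLN 1.

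Genes known as targets of interferon-γ were higher along with the antiviral genes. Of 18 tested GBP and IRG list members 14 rose and 0 fell, with a median log2 fold change of 1.65. Cxcl10 among them was at 0 and 1.02 CPM in non-responding cells of MLN 1 and MLN 2, so it could hardly fall. Igtp (chr11:58199556-58207591) and Irgm1 (chr11:48861968-48871683), immunity-related GTPases that act on vacuoles of pathogens, stood at 188 and 162 against 57.2 and 55.3 CPM (log2 1.71 ± 0.11) and at 124 and 178 against 31.3 and 36.0 CPM (log2 2.14 ± 0.14). Ifi47, the most abundant member, had 385 and 353 against 157 and 159 CPM. Tgtp1 and Tgtp2, at log2 2.81 and 2.27, are near copies that may share reads. Gbp3, Gbp8, Cd274 and Serpina3g did not pass. MHC class I presentation genes differed by small folds, with 15 of 19 higher, 0 lower and a median log2 fold change of 0.43. B2m, the invariant light chain, had 1621 and 1613 against 1256 and 1268 CPM (log2 0.40 ± 0.045, adjusted p = 2.03e-10), and H2-K1, a heavy chain, had 2685 and 2576 against 2253 and 2476 CPM (log2 0.21 ± 0.040). The groups did not overlap for either gene, but the mice differed for H2-K1, whose difference in MLN 2 was small. Without the mouse as a block 5 of the 19 MHC genes passed, and 13 of the 18 GBP and IRG and 43 of the 47 antiviral list members did so.

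In the MLN 1 gene of the Th2 list and 1 of the follicular helper list passed. Over all tested genes 2.1% were higher and 0.297% lower. Of 11 tested Th2 list genes 1 rose, Areg, with 44.8% of its UMIs in responding cells coming from 1 cell. Areg had 24.1 against 2.94 CPM in MLN 1 and 2.19 against 3.73 CPM in MLN 2, so its call rested on MLN 1, and it was at log2 -0.69 in the second experiment and -0.24 in the lung, where it did not pass. Il4 had 409 against 375 CPM in MLN 1 and 276 against 319 CPM in MLN 2 (log2 0.06 ± 0.078, adjusted p = 0.991), so that the mice went in opposite directions. Gata3 had 216 and 248 against 205 and 240 CPM (log2 0.11 ± 0.085, adjusted p = 0.928). Il13 was low and differed more between mice than between classes, with 13 against 8.15 CPM in MLN 1 and 57.1 against 63.8 CPM in MLN 2. Of 15 follicular helper genes 0 rose and 1 fell, Sh2d1a, the adaptor SAP, with 393 and 384 against 503 and 485 CPM (log2 -0.31 ± 0.070, adjusted p = 0.00256). Cxcr5 had 123 and 103 against 137 and 116 CPM, Pdcd1 165 and 156 against 198 and 190 CPM and Bcl6 28.5 and 26.3 against 30.2 and 35.0 CPM. These 3 values were each lower in both mice and did not pass.

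Other T cell programs gave 0 to 2 calls each, beside 2.1% of all tested genes higher and 0.297% lower. Of 16 effector and resident memory genes 2 rose, Plac8 (log2 0.65) and S100a6 (log2 0.38). S100a6 had 258 against 240 CPM in MLN 1 and 303 against 169 CPM in MLN 2, so most of its difference came from MLN 2. Plac8 and S100a6 did not pass in the second experiment (log2 0.08 and -0.06). In the lung S100a6 fell (log2 -0.40, adjusted p = 0.0191) while Plac8 was at 0.07. Of 10 naive and migrating T cell genes 1 rose and 0 fell. Early TCR response genes gave 1 call each way of 15 tested, with Cd69, an activation antigen that interferon also induces, at log2 0.47 and Nr4a1, an immediate target of TCR signalling, at log2 -0.73. Cd69 passed in the second experiment (log2 0.61) but not here without the block, with DESeq2 or with dividing cells left out. Nr4a1 had 20.2 against 38.0 CPM in MLN 1 and 30.7 against 34.0 CPM in MLN 2. It did not pass in the second experiment (log2 0.46) or the lung (log2 -0.0007). Of 20 proliferation genes 0 passed. Their summed level was 2153 against 2449 CPM in MLN 1 and 3103 against 1963 CPM in MLN 2, and dividing cells made up 7.47% against 6.27% and 5.88% against 5.04% of the classes. No member of the T cell identity, Th1 (6 tested), regulatory T cell (3 tested) or CD8 T cell (1 tested) lists passed.

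The lists of markers of other cells that the sort could hold differed in level, with B cell and exocrine pancreas transcripts highest in the responding cells of MLN 2. Ms4a1 of B cells was at 0 in every responding cell, Cd79a was found in 0 of 656 and 0 of 68 (3 counts allow shares of cells with a UMI of up to 0.457% and 4.41%), and the summed level of the B cell list, 221 against 255 CPM in MLN 1 and 344 against 259 CPM in MLN 2, was nearly all Ighm. Of 13 myeloid genes 10 were tested and 0 passed, with a sum of 86.6 against 51.7 CPM in MLN 1 and 81.2 against 155 CPM in MLN 2, led by Cd74. In the second experiment Cd74 was lower in responding cells (log2 -1.16, adjusted p = 0.0266), and the myeloid list summed to 489 against 338 CPM in medLN 1, 54.8 against 324 CPM in medLN 2, 234 against 482 CPM in MLN 1 and 176 against 684 CPM in MLN 2. In the lung Cd74 was lower too (log2 -4.13, adjusted p = 4.80e-08), and the myeloid list summed to 12.4 and 0 CPM in responding against 72.3 and 42.3 CPM in non-responding cells. Cd74 itself was at 4.13 CPM in responding cells of lung 1 and at 0 in those of lung 2. It could be tested there only through the non-responding cells and could hardly rise, so its fall in the lung is a description. Of 5 plasmacytoid dendritic cell genes 1 was tested, Pacsin1, which did not pass, and Siglech was found in 1 of 656 and 0 of 68 responding cells. Cd8a was found in 1 of 656 and 0 of 68 responding cells, and the 4 red blood cell genes were at 0. Exocrine pancreas transcripts were at 0.927 against 5.06 CPM in MLN 1 and at 263 against 98.8 CPM in MLN 2, and the 1 called gene of that list, Cela2a, had 30 of its 31 UMIs in 1 responding cell. Gzma, of the NK and innate-like list, was found in 58 of 656 responding (8.84%, 6.78 to 11.3%) and 31 of 1133 non-responding cells (2.74%, 1.87 to 3.86%) of MLN 1 and in 1 of 68 and 6 of 516 cells of MLN 2. Its level was 54.0 against 30.7 CPM in MLN 1 and 2.19 against 2.38 CPM in MLN 2, so its call (log2 0.84 ± 0.18, adjusted p = 0.00114) rested on MLN 1. The part of these transcripts in the other results was not tested.

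The 29 lower genes were in no interferon list. The largest falls were of scarce transcripts, which lie outside the rule for named genes and were named after their values were seen. Akr1c18, at log2 -4.08, had 0.927 and 0 CPM in responding against 16 and 7.13 CPM in non-responding cells of MLN 1 and MLN 2. Spry1, at log2 -2.03, had 2.08 and 0 against 8.32 and 3.73 CPM, and Il2 was at log2 -1.93. Akr1c18 and Spry1 could be tested only through the non-responding cells and could hardly rise. Their part in the count of lower genes, and in the repeats below, is a description. A single non-responding cell held 32.8% of the UMIs of Akr1c18 and 53.4% of those of Il2. Akr1c18 did not pass in the second experiment (log2 -0.62) or the lung (log2 -0.42). Il2 had the opposite sign there, at log2 0.41 in the second experiment and 0.63 in the lung, and did not pass. Among lower genes of at least 50 CPM the falls were below 1 log2 unit. Slc26a11, an anion transporter gene, had 48.0 and 39.5 CPM in responding against 80.6 and 73.7 CPM in non-responding cells of MLN 1 and MLN 2 (log2 -0.73 ± 0.15, adjusted p = 0.000458). Smtn had 75.5 and 79.0 against 137 and 105 CPM, and Ubac2 155 and 140 against 233 and 209 CPM (log2 -0.54 ± 0.091, adjusted p = 1.46e-05). Tubb2a, Lmo4, Tmem191c, H2-Q2 and Pink1, the kinase that marks damaged mitochondria, followed with log2 fold changes between -0.62 and -0.44, and H2-Q2 has close paralogs among which reads may be divided. The 8 genes were chosen as called and lower in both mice. That both responding sums lay below both non-responding sums in each of them is therefore a description. With DESeq2 none of the lower genes was called, without the mouse as a block 3 were, and against non-responding cells matched in depth 5 of the 29 were. Of the 8 genes Smtn and Ubac2 were still called at matched depth, and Sh2d1a was not.

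Most of the higher genes were higher again in the mice of the second experiment, where the same 5 genes chose the cells, so the repeat is not independent of that choice. The rule, without the TCR, found 172 to 314 responding and 1214 to 1360 non-responding IL-4eGFP+ cells in each of 4 samples, and 266 of 9984 genes (2.66%) were higher and 31 (0.31%) were lower in responding cells. Of the 205 genes that were higher in the MLN of the first experiment, 199 were tested and 152 were called higher again, which was 76.4% of these genes and 58.2% of the higher genes of the second experiment that were tested in both, and 186 of 199 (93.5%) had a positive fold change, against 48.8% of all genes tested there. The 199 genes had a median log2 fold change of 1.02. Of the 29 lower genes 1, Rflnb, was called lower again (3.45%) and 22 (75.9%) had a negative fold change, against 51.2% of all genes, with a median of -0.12. Bst2 in responding cells reached 401, 308, 404 and 389 CPM in medLN 1, medLN 2, MLN 1 and MLN 2, against 91.9, 76.8, 90.2 and 102 CPM in non-responding cells (log2 2.12 ± 0.066, adjusted p = 2.01e-12). The 4 samples were medLN and MLN of 2 mice in 1 library, so these adjusted p-values count each mouse more than once. With medLN and MLN summed per mouse, a fit chosen after seeing the data, 240 of 10855 genes were higher and 34 lower, 153 of 201 tested (76.1%) of the 205 genes were higher again, and Bst2 had an adjusted p of 5.88e-10. Every responding sum of Bst2 was above every non-responding sum. Irf7 reached 249, 166, 233 and 193 against 36.1, 33.1, 37.8 and 30.7 CPM (log2 2.68 ± 0.088), again with no overlap.

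The lists repeated to different extents. Of the antiviral list 44 of 45 tested genes rose, of the GBP and IRG list 18 of 20 and of the MHC class I list 15 of 19, with median log2 fold changes of 1.79, 1.74 and 0.45. Irf1 passed in this experiment (log2 0.56 ± 0.12, adjusted p = 0.0104) beside Irf7, and again 0 of 5 receptor genes passed. Il4 had a log2 fold change of 0.14 ± 0.069 (adjusted p = 0.457) and Gata3 one of -0.02 ± 0.085, while the Th2 list gene Maf rose (log2 0.30, adjusted p = 0.0225) and so did the follicular helper gene Izumo1r (log2 0.17, adjusted p = 0.0413). Nkg7 of the Th1 list, Vim of the effector list and Rrm2 and Mcm7 of the proliferation list fell, with log2 fold changes between -0.92 and -0.33. With medLN and MLN summed per mouse Izumo1r, Vim and Mcm7 did not pass (adjusted p = 0.0638, 0.0516 and 0.0557). Sh2d1a, lower in the first experiment, was at -0.02 ± 0.055, and Gzma was at -0.02 ± 0.16. Il2ra fell (log2 -0.84 ± 0.11, adjusted p = 7.32e-05), while in the first experiment it had 15.3 and 2.19 against 15.7 and 7.81 CPM.

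**Figure D5:**
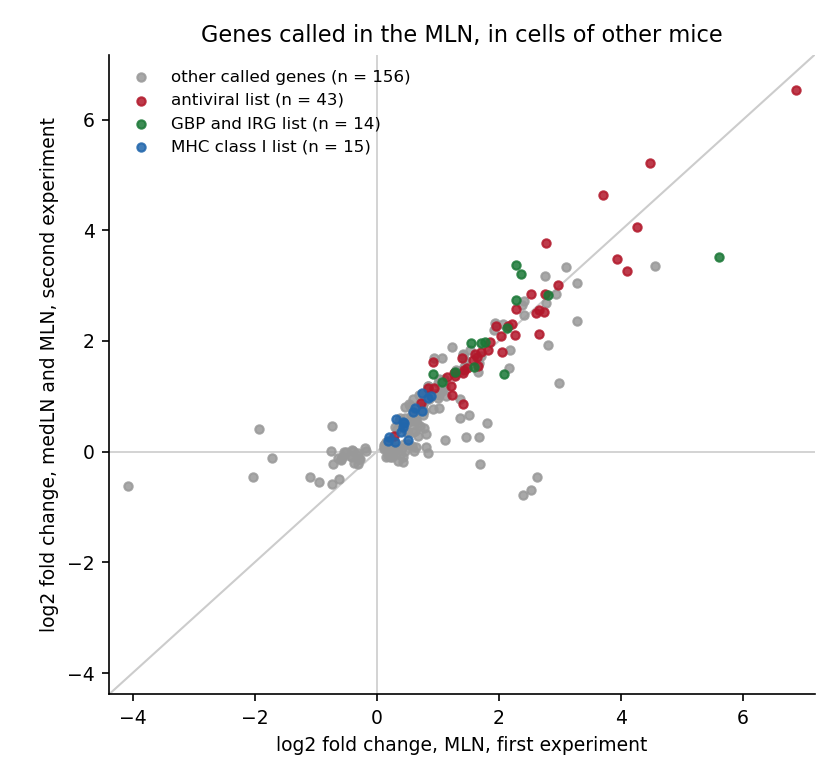
Log2 fold change between responding and non-responding cells in the MLN of the first experiment (horizontal axis) and in medLN and MLN of other mice in the second experiment (vertical axis), 1 point for each gene called in the first and tested in both. All 43 antiviral, 14 GBP and IRG and 15 MHC class I genes lie above 0 on both axes, and 121 of the 156 other genes lie above 0 in the second experiment. The 156 include the 29 genes lower in the first experiment, of which 22 had a negative fold change in the second as well.

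Responding cells were found in both lymph nodes and both sort gates of the second experiment. Among IL-4eGFP+ cells the shares were 15.2% (314 of 2065) in medLN 1, 8.55% (172 of 2012) in medLN 2, 13% (259 of 1986) in MLN 1 and 14.9% (297 of 1998) in MLN 2. The difference of means between medLN and MLN was -2.08 percentage points (p = 1 in an exact two-sided permutation test, 2 samples against 2). Among IL-4eGFP- cells the shares were 12.4%, 6.33%, 11.1% and 14.6% in the same order. IL-4eGFP+ cells were higher in 4 of 4 samples, by 1.79 percentage points on average (p = 0.125 in an exact two-sided paired permutation test, the smallest that 4 pairs allow). These 4 pairs are the medLN and the MLN of only 2 mice, so they share animals and are not independent. At 2000 UMIs per cell the difference was 0.345 points (p = 0.625, exact), and with Isg15 left out of the sum it turned to -1.65 points (4.11% against 5.76%, p = 0.125, exact). The composition of the sum differed between the gates, which is given as a description since these genes chose the cells. Isg15 stood at 1242, 1031, 1250 and 1183 CPM in IL-4eGFP+ responding cells and at 1247, 1050, 1127 and 1151 CPM in IL-4eGFP- ones, whereas Ifit1 was at 333, 286, 248 and 254 CPM against 503, 577, 485 and 487 CPM, and Usp18 at 121, 90.5, 107 and 90.0 CPM against 291, 250, 250 and 258 CPM. For Ifit1 and Usp18 the values of the gates did not overlap. All 4 samples of a gate were in 1 library, so gate and library cannot be told apart in any of these values. The GBP and IRG list was also higher in IL-4eGFP- cells, at 2860, 2495, 2736 and 2741 CPM in responding and 925 to 1055 CPM in non-responding cells, against 1774, 1541, 1559 and 1542 CPM and 567 to 655 CPM in IL-4eGFP+ cells.

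Lung cells of the first experiment gave the same comparison with fewer cells. Over 54 and 29 responding against 881 and 334 non-responding cells, 93 of 8172 genes (1.14%) were higher and 28 (0.343%) lower. Of the 205 higher MLN genes 182 were tested and 78 were called higher (42.9% of them, and 85.7% of the higher lung genes tested in both), and of the 27 lower genes tested 0 were called lower. The responding sums held 484607 and 182741 UMIs, against 4316691 and 455740 in the MLN. The antiviral list had 30 of 38 tested genes higher with a median log2 fold change of 1.54, and the MHC class I list 3 of 19. Of 13 Th2 list genes 0 rose and 3 fell in the lung, Il13 (log2 -1.40, adjusted p = 2.69e-07), Pparg (log2 -2.11) and Il10. The lowest log2 fold change of a Th2 list gene there was -9.41. A gene nearly absent from the few responding lung cells could be tested only through the non-responding cells and could hardly rise. Of 12 follicular helper genes 1 fell, Pdcd1 (log2 -1.30, adjusted p = 8.04e-06). S1pr1 and Ccr7 of the naive and migrating list rose in the lung (log2 1.02 and 0.89), as did Ccl5 of the Th1 list (log2 2.30). Lgals1 and Lgals3 of the effector list fell (log2 -0.43 and -1.36). Whether the classes held different kinds of lung cells was not tested. In lung 1, 66.7% of the responding cells had UMIs of Isg15 alone among the rule genes, against 31.0% in lung 2 and 27.4% and 27.9% in the MLN, and Ifit1 was found in 11.1% and 31.0% of lung responding cells against 61.0% and 64.7% in the MLN. Antiviral genes per cell at 2000 UMIs had a median of 6 against 4 in lung 1 and 10.5 against 4 in lung 2. The test of the difference between the MLN and the lung contrast, chosen after the data had been seen, called 8 of 9360 genes (0.0855%). Ly6a was among them, with a larger difference in the MLN (log2 0.86 ± 0.15, adjusted p = 0.0288), where non-responding cells stood at 337 and 223 CPM against 691 and 509 CPM in the lung. The test of medLN against MLN in the second experiment called 17 of 9984 genes (0.17%), none of them in the antiviral or MHC class I lists, and Igtp of the GBP and IRG list, which differed more in medLN (log2 0.72 ± 0.14, adjusted p = 0.0435).

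Responding cells shared clones with the other cells. Cells counted as clone members when their productive α and β chains matched in every gene segment and in the CDR3 nucleotides. Clones of at least 2 cells, counted over the MLN and lung of a mouse together, were called expanded. In MLN 1, 193 of 656 responding cells (29.4%, 26.0 to 33.1%) and 350 of 1133 non-responding cells (30.9%, 28.2 to 33.7%) were in expanded clones, and in MLN 2 it was 11 of 68 (16.2%, 8.36 to 27.1%) and 65 of 516 (12.6%, 9.86 to 15.8%). Clone members in the lung of the same mouse were found for 7.93% of responding and 7.94% of non-responding cells of MLN 1, and for 5 of 68 (7.35%, 2.43 to 16.3%) and 12 of 516 (2.33%, 1.21 to 4.03%) in MLN 2. Of 278 clones with 2 or more cells in MLN 1, 19 held responding cells only, 112 held responding beside other cells and 147 held none. The largest of them had 10 cells, of which 5 were responding. In MLN 2, 1 of 37 such clones was all responding, 5 were mixed and 31 held none. Among the clone members of a responding cell in MLN 1 a mean of 32.1% were responding too (171 cells), against 21.4% among those of a non-responding cell (318 cells) and 26.6% of all cells. In MLN 2 it was 37.5% over 8 cells and 6.60% over 53, but with clones defined by the TCRβ chain alone it was 11.4% over 22 and 11.4% over 124 cells, while MLN 1 then gave 31.0% and 22.2%. Cells of 1 mouse and of 1 clone are not independent, and no test was made of these shares.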

How the data were processed

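The authors combined sequencing runs, aligned reads to mm10 and counted UMIs with Cell Ranger (versions 2.1.1, 3.0.1 and 6.1.2 are named in the submitters' processing notes), and the deposited values are raw counts of UMIs per gene and barcode, of UMIs per TCR contig and, in the second experiment, of UMIs per hashtag. The genome build of the second experiment is not given in the sources used here. Its sort gate was read from the barcode suffix, and hashtags were called with HTODemux of Seurat 5.3.0, which kept 8061 IL-4eGFP+ and 8706 IL-4eGFP- single cells and left out 1242 and 1272 doublets and 82 and 48 cells with no hashtag. Each gate was 1 library of 4 hashtag samples.

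Counts were summed per sample and class and tested with edgeR 4.0.16 (filterByExpr, TMM, quasi-likelihood, threshold 0.05) with the sample (a library in the first experiment, a hashtag in the second) as a block, because both sums come from the same organ of the same mouse. Deviations of the 2 sums of a sample correlated at 0.184 in the MLN, 0.151 to 0.236 in the second experiment and 0.105 in the lung. DESeq2 1.42.0 was an alternative. Exact intervals and permutation tests used scipy 1.17.1. Tested on simulated data, the edgeR step recovered fewer small changes in the lung than in the MLN and made more false calls in the second experiment than in the other fits. In the first experiment no doublet caller was run, and cells with extra TCR chains were left out as an alternative.

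The members and gene lists were chosen with earlier results of these data known. Named genes were the 12 called genes with the largest and the 8 with the smallest log2 fold change, of at least 50 CPM in the higher class and the same direction in both mice, the 3 most abundant members of each of 25 lists, and fixed regulators and helper genes; others were named after their values were seen. Some genes that this rule names are not reported here.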

Additional observations from a re-analysis of the deposited data

Results flagged for a closer look

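Among 33 groups of 4 samples checked for a sample that stands apart from the rest, chance alone marks about 1 in 20. In responding IL-4eGFP+ cells of the second experiment the GBP and IRG list stood apart in medLN 1 at 1774 CPM, with the other 3 samples between 1541 and 1559 CPM. Bst2 stood apart in medLN 2 at 308 CPM, below 401, 404 and 389 CPM in the other samples. Ifng was at 1.27 CPM in medLN 2 and at 0 in the other 3, which is 1 UMI.

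Differences of the contrast between organs were called for 8 genes between MLN and lung and for 17 genes between medLN and MLN with edgeR (1 and 3 genes with DESeq2). Between MLN and lung, Ly6a differed by 0.86 log2 units (adjusted p = 0.0288), Il13 by 1.70 (adjusted p = 0.0291), since it was at 144 and 27.4 CPM in responding against 344 and 114 CPM in non-responding lung cells, and Gzma by -4.23 (adjusted p = 0.000115), with 49.5 and 126 CPM in responding against 2.23 and 1.35 CPM in non-responding lung cells. The Gzma level in the lung came from 2 of 54 and 3 of 29 responding cells. Between medLN and MLN, Igtp differed by 0.72 (adjusted p = 0.0435) and S100a11 by 0.52 (adjusted p = 0.0240). Among the 17 genes were Jchain, Igkc, Iglv1, Iglc1 and Iglc2 of plasma cells. Jchain was at 149, 6.37, 2.15 and 0 CPM in responding and at 133, 2.37, 442 and 182 CPM in non-responding cells of medLN 1, medLN 2, MLN 1 and MLN 2, so these transcripts differed between single samples. Their part in the other results was not tested.

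MLN barcodes that passed the filters but lacked a productive TCRα or TCRβ chain were not used above. Of these, 17.8% (62 of 348, exact 95% interval 13.9 to 22.2%) were responding in MLN 1 and 5.52% (8 of 145, 2.41 to 10.6%) in MLN 2. Such barcodes gave 4.02% (21 of 523) in lung 1 and 10.1% (21 of 208) in lung 2, so that lung 2 was above MLN 2, unlike among the cells with a TCR.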

How the results depend on the processing

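In the MLN the 234 called genes became 128 with no replicate block (all 128 shared, 125 higher), 87 with DESeq2 (all shared and higher), 60 when cells with 3 or more UMIs of proliferation genes were left out, which kept 121, 253, 9 and 117 cells and 5817 genes, and 55 to 142 when 1 sum was left out, where the lone sum is assumed to vary like the others. It was 55 without the responding cells of MLN 1, 142 without its non-responding cells, 129 without the responding and 140 without the non-responding cells of MLN 2. The other settings gave 158 to 270 calls, and a filter on dividing cells chosen after seeing the data 242. The antiviral list had 26 to 45 calls across the settings, the GBP and IRG list 5 to 15 and the MHC class I list 1 to 16. Of the named genes 5 turned direction in a called value under an alternative, with no more than 2 under any of them. With 1 sum left out, the log2 fold change of Gzma in the MLN was -3.08 to 4.18, that of Cela2a in the MLN -8.08 to 6.997 (-0.11 without the non-responding cells of MLN 1) and that of Il13 in the MLN -1.63 to 1.46. At a sum of 6 or more Cela2a in the MLN was at -2.04, with depth-matched non-responding cells Lgals1 in the MLN was at -0.35, and against cells with a sum of 1 or 2 Lyz2 in the MLN was at -1.92. The cause was not tested.

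In the second experiment 297 calls became 176 with DESeq2 and 452 with no filter on low counts (299 higher, 153 lower), 210 to 314 without 1 sample and 274 with medLN and MLN summed per mouse (246 shared). In the lung 121 calls became 42 with no replicate block, and the 17 and 8 genes that differed between organs became 3 and 1 with DESeq2. The MLN shares of 26.6% and 9.02% became 13.8% and 3.36% at 2000 UMIs, 35.3% and 14.2% at a sum of 2 or more, 15.7% and 4.11% at 6 or more and 10.97% and 3.85% without Isg15, and 24.5% in MLN 1 without Ifit1. Clones by the TCRβ chain alone raised the expanded share of responding cells to 36.1% and 35.3%.

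Of the 205 higher genes 11, and of the 29 lower genes 3, had over 20% of the UMIs of the higher class in 1 cell, among them Cela2a, Ccl1, histone H3 genes, Gzmb and Areg.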

Other observations

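Outside the fixed lists, further higher MLN genes, named after their values were seen, repeated in both other comparisons. Pml, which encodes the scaffold of nuclear bodies, was at 95.4 and 118 CPM in responding against 23.2 and 23.4 CPM in non-responding cells of MLN 1 and MLN 2 (log2 2.18), and at log2 1.83 in the second experiment and 1.99 in the lung. Its partner Daxx was at 134 and 127 against 50.7 and 52.6 CPM (log2 1.41, then 1.74 and 1.40). Mndal, an Ifi200 family gene, was at 253 and 261 against 105 and 113 CPM (log2 1.29, then 1.47 and 1.52), and Ms4a4b, a membrane protein of T cells, at 952 and 900 against 578 and 573 CPM (log2 0.73, then 0.80 and 1.19). Each of the 4 passed in all 3 comparisons.

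The genes Hsp90aa1, Hspa8 and Hsp90ab1, which encode chaperones and were also named after their values were seen, were higher in the MLN of the first experiment and did not pass in the same contrast of the second experiment or the lung. Hsp90aa1 was at 461 and 386 against 348 and 308 CPM (log2 0.42 ± 0.073), Hspa8 at 2308 and 2282 against 1928 and 1951 CPM (log2 0.29 ± 0.040) and Hsp90ab1 at 2396 and 2304 against 2112 and 1921 CPM (log2 0.26 ± 0.040). In the second experiment the 3 genes were at log2 -0.19, 0.07 and 0.02 with adjusted p of 0.287, 0.517 and 0.914. Within the second experiment Hsp90aa1 differed between the contrasts in medLN and MLN (log2 -0.48, adjusted p = 0.00579), with 538 and 604 CPM in responding against 792 and 829 CPM in non-responding cells of medLN 1 and medLN 2. The difference between the experiments was not tested.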
